A study of Homo sapiens with 9 samples.

Results

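The D-type cyclins, their kinases CDK4 and CDK6, and the inhibitors that bind these kinases were followed in RNA-seq of NCI-H1155, a neuroendocrine-type lung cancer cell line of human origin. The set was chosen by gene symbol and held 10 of the 23369 genes in the table: CCND1, CCND2, CCND3, CDK4, CDK6, CDKN1A, CDKN1B, CDKN1C, CDKN2B and CDKN2C. Libraries came from cells given 1 µM foretinib for 4 h (replicates 1, 2 and 4), 1 µM cabozantinib for 4 h (replicates 3, 4 and 5) or the vehicle DMSO (replicates 2, 4 and 5), each started 24 h after plating. Foretinib and cabozantinib are multi-kinase inhibitors of one chemical family; foretinib has an added fluorine on its central ring and a morpholinopropoxy chain where cabozantinib has a methoxy group. All 9 libraries are of 1 cell line and the labels call them biological triplicates; p-values measure the spread between these cultures, and in bulk RNA fewer cells of a type cannot be told apart from less RNA per cell.

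In textbook outline, D cyclins are made in response to growth signals and switch on CDK4 and CDK6, which phosphorylate the retinoblastoma protein and so release E2F factors that drive entry into S phase. INK4 proteins, here CDKN2B (p15) and CDKN2C (p18), bind CDK4 and CDK6 alone and keep the D cyclins off. CIP/KIP proteins, here CDKN1A (p21), CDKN1B (p27) and CDKN1C (p57), bind cyclin-CDK complexes and block CDK2 above all. In cells that have lost the retinoblastoma protein this checkpoint no longer holds, and many neuroendocrine lung cancers are of that kind.

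The libraries held 26996023 to 34062153 gene-assigned reads in foretinib, 27264766 to 27522332 in cabozantinib and 27257862 to 32986439 in DMSO. Values are normalised read counts, the authors' read counts divided by 1 size factor per library. Errors are SDs over the 3 libraries of a group (n = 3). A gene was tested if 3 or more libraries held at least 10 normalised reads of it, which left 12642. Per library, the share of these at 0 averaged 18.5% ± 2.38 with foretinib, 5.01% ± 0.544 with cabozantinib and 7.25% ± 3.14 with DMSO. DMSO replicate 2 had the highest share of its group, 10.9%, and the lowest CCND1, CDKN1B, CDKN1C and CDKN2B of the DMSO libraries; without it the CDKN2B difference for foretinib against DMSO was -7.65. Among genes with a group mean of 1000 to 3000, the median coefficient of variation between libraries was 50.02% in foretinib, 24.2% in cabozantinib and 28.1% in DMSO. All 10 neuroendocrine markers were detected in every group, with summed levels of 85443 to 94675 in foretinib, 86209 to 91337 in cabozantinib and 78765 to 88119 in DMSO. The 4 epithelial markers (EPCAM, KRT8, KRT18 and CDH1) summed to 2603 to 5109 in foretinib, 4271 to 6674 in cabozantinib and 3962 to 6554 in DMSO. Of the leukocyte markers, 4 of 5 were listed at 0 in all libraries, PTPRC among them, and their summed level reached at most 9.04 in foretinib, 61.6 in cabozantinib and 71.3 in DMSO. Of the endothelial markers, 3 of 4 were listed at 0 (VWF, CDH5 and KDR), with sums of at most 0, 53.2 and 87.4, and of the fibroblast markers 2 of 5 (COL3A1 and DCN), with sums of 869 to 1194, 767 to 1049 and 453 to 1345 in the same groups.

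Transcripts of 3 inhibitors, CDKN1A, CDKN1C and CDKN2B, were at or near 0 with foretinib. CDKN1C and CDKN2B were kept with cabozantinib, while CDKN1A was listed at 0 with both compounds. CDKN1A passed the filter for testing only through DMSO, and CDKN1C needed its cabozantinib libraries to pass. Of tested genes within 2-fold of the DMSO mean of CDKN1A, 19.04% were at 0 in all 3 foretinib libraries, and 13.8% for CDKN1C. CDKN2C was the 1 member whose foretinib libraries all lay above those of the other groups, at 1.78 times the DMSO mean. CDK4 and CCND3, the leading kinase and the leading D cyclin, had groups that overlapped. None of these differences passed a Benjamini-Hochberg adjusted p of 0.05 over all tested genes in limma-trend, the moderated linear model used throughout on log2(value + 1).

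**Figure D1:**
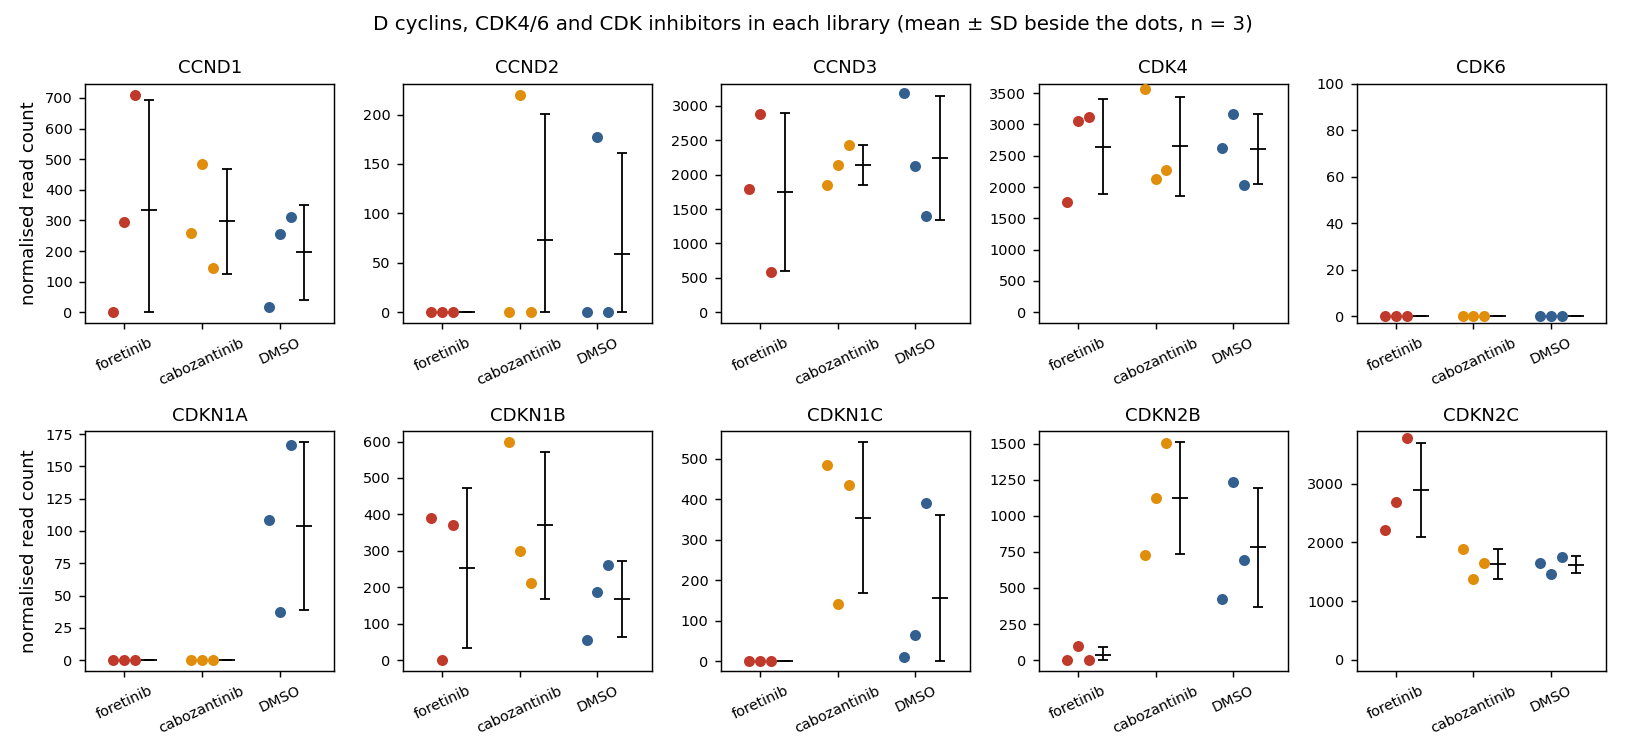
Normalised read count (vertical axis) of each of the 10 genes in every library, with foretinib, cabozantinib and DMSO from left to right; dots are libraries, and the bar beside them is the mean ± SD (n = 3), with its lower end stopped at 0. The 3 foretinib libraries of CDKN2C (2213 to 3771) lie above all others, and those of CDKN2B (0 to 97.0) below all others.

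The promoter stretches of CDKN2B and CDKN1A are shown because these inhibitors were at or near 0 with foretinib; CDKN1C has no window in the table used. The RefSeq windows used (GRCh38.p14) covered 250 bases before each annotated start and matched 7 of the 10 members in 12 windows. They are printed only where no annotated exon of the gene itself overlaps. Exons of genes outside the set, other than CDKN2B-AS1, were not checked. Capitals mark Sp1 boxes (GGGCGG on either strand).
CDKN2B, minus strand, chr9:22009364-22009555: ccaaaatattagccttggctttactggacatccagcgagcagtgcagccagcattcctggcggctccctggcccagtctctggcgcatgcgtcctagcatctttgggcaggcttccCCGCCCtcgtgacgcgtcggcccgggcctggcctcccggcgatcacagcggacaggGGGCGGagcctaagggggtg
CDKN1A, plus strand, chr6:36678464-36678657: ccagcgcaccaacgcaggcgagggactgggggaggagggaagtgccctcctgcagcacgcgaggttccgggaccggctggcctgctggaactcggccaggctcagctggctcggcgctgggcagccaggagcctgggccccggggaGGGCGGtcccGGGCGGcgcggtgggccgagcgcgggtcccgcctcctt
CDKN2B holds Sp1 boxes 134 and 78 bases before its start, and CDKN1A 104 and 94 bases before its start, with 2 more nearer to it outside the stretch printed. All 7 members with a window held such a box in at least 1 of their windows, CDKN2C included. CDKN2C, CCND3 and CDK6 also had a window without a box. Of all 35116 windows of the same length 42.6% held a box, a share per window and not per gene. The letters of an EGR core (GTGGGCG, in 8.53% of windows), an AP-1 site (TGANTCA, 6.57%), an E-box (CACGTG, 6.34%), an E2F site (TTTNGCGC, 1.51%) and a FOXO site (GTAAACA, 2.98%), searched on both strands, were not in the windows of either gene. The CDK4 window held 3 E-boxes, and 2 of the 3 CDKN2C windows held 1 each. The EGR core, whose letters can overlap those of an Sp1 box, was found in 1 of the 3 windows of CDKN2C and in 1 of the 3 of CCND3. A match is a match of letters and not a bound site.

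Set per kilobase of the main annotated transcript, DMSO levels ran from CDK4 (1256 ± 270.3 normalised reads per kb) and CCND3 (1073 ± 433) through CDKN2C (558 ± 51.1) and CDKN2B (200.1 ± 105) to CDKN1C (80.4 ± 107), CDKN1B (63.3 ± 39.2), CDKN1A (45.8 ± 28.6) and CCND1 (45.4 ± 36.2). CDK4 and CCND3 overlapped in their DMSO libraries, and the last 4 genes of that order overlapped with each other, CDKN1C also overlapping CDKN2B, while CDKN2C lay below CCND3 and above CDKN2B without overlap. CCND2 averaged 9.09 ± 15.8 per kb in DMSO and CDK6 was listed at 0, so CDK4 was the only one of the pair of kinases seen. In foretinib the order began with CDK4 (1274 ± 367), CDKN2C (995 ± 275) and CCND3 (839 ± 552), whose libraries overlapped. In cabozantinib the order began as in DMSO, with CDK4 (1278 ± 381), CCND3 (1026 ± 139), CDKN2C (564 ± 89.2), CDKN2B (287 ± 99.4) and CDKN1C (183 ± 96.4).

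Among the D cyclins, CCND3 had the highest level per kb in every group. CCND3, a D cyclin best known from lymphoid cells, had 1786, 2882 and 581 normalised reads in foretinib replicates 1, 2 and 4, 1850.5, 2137 and 2431 in cabozantinib replicates 3, 4 and 5, and 3192, 2121 and 1399.8 in DMSO replicates 2, 4 and 5. The groups overlapped, and foretinib held the lowest value. Foretinib differed from DMSO by -0.55 on the log2 scale (95% interval -1.71 to 0.61, limma adjusted p = 0.701) and cabozantinib by 0.0069 (-1.15 to 1.17); foretinib differed from cabozantinib by -0.56 (-1.72 to 0.60, adjusted p = 0.683).

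CCND1, the D cyclin whose transcription follows RAS and ERK signalling in many cells, was low and uneven. It had 0, 294 and 711 normalised reads in the foretinib libraries, 259, 484 and 146 in the cabozantinib libraries and 18.3, 257 and 311 in the DMSO libraries, in the replicate order given above and used from here on. Foretinib thus held both the lowest and the highest library. The log2 difference of foretinib against DMSO was -0.96 (-6.39 to 4.46, limma adjusted p = 0.898), although the mean with foretinib was 1.71 times that with DMSO; the sign turned with the pseudocount, and the fit without foretinib replicate 1 gave 1.98. Cabozantinib differed from DMSO by 1.19 (-4.23 to 6.62), and foretinib from cabozantinib by -2.16 (-7.58 to 3.27). CCND2 was found in 2 of the 9 libraries, at 220.2 in cabozantinib replicate 4 and 177 in DMSO replicate 4, and listed at 0 in all 3 foretinib libraries; it did not reach the filter and was not tested.

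CDK4, the kinase that D cyclins activate, had 1765, 3055 and 3113 normalised reads in foretinib, 3563, 2123 and 2272 in cabozantinib and 2619, 3162 and 2040.1 in DMSO. The 3 groups covered the same range. On the log2 scale foretinib differed from DMSO by -0.0032 (95% interval -0.77 to 0.76) and cabozantinib by 0.0080 (-0.76 to 0.78), and foretinib differed from cabozantinib by -0.011 (-0.78 to 0.76); differences of up to 0.76 either way lay within all 3 intervals. CDK6, its close relative, was listed at 0 in all 9 libraries and was not tested.

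CDKN1A (p21), which p53 induces, was listed at 0 in all 3 foretinib libraries and all 3 cabozantinib libraries, and had 108, 37.2 and 166 normalised reads in the DMSO libraries. Every DMSO library was above every library of both compounds, but the gene passed the filter only through its DMSO libraries and so had to differ; no fold is given. Of the 1917 tested genes within 2-fold of its DMSO mean, 19.04% were at 0 in all 3 foretinib libraries and 1.46% in all 3 cabozantinib libraries. The count at 0 in all 6 compound libraries was 10 of those 1917, or 0.522%. The part of these zeros in the CDKN1A values was not tested.

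CDKN1C (p57), an imprinted inhibitor, was listed at 0 in all 3 foretinib libraries, and had 486, 141 and 436 normalised reads in the cabozantinib libraries and 9.98, 65.3 and 392 in the DMSO libraries. The foretinib libraries lay below all others, and cabozantinib overlapped DMSO. The limma adjusted p was 0.497 for foretinib against DMSO and 0.377 for foretinib against cabozantinib, where the fitted size depends on the pseudocount; cabozantinib against DMSO gave 2.24 (-2.80 to 7.28), and 0.95 without DMSO replicate 2 or 3.53 without DMSO replicate 5. Of the 2472 tested genes within 2-fold of its DMSO mean, 13.8% were at 0 in all 3 foretinib libraries and 1.01% in all 3 cabozantinib libraries; their part in the CDKN1C values was not tested.

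CDKN1B (p27), which holds cells in quiescence and is controlled largely through protein turnover, had 389.7, 0 and 371 normalised reads in foretinib, 598, 299.96 and 213 in cabozantinib and 55.7, 188 and 261 in DMSO. The groups overlapped. The log2 difference of foretinib against DMSO was -1.42 (-6.49 to 3.65, limma adjusted p = 0.824) while the ratio of the means was 1.51, with the single 0 in foretinib replicate 2 setting the sign; without that library the difference was 1.43. For cabozantinib against DMSO it was 1.26 (-3.81 to 6.33), and for foretinib against cabozantinib -2.68 (-7.75 to 2.39). The summed level of the 3 CIP/KIP genes averaged 254 ± 219.9 in foretinib, all of it CDKN1B, 724 ± 328 in cabozantinib and 428 ± 344 in DMSO.

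The INK4 inhibitors split. CDKN2B (p15), which TGF-beta induces in epithelial cells, had 0, 97.0 and 0 normalised reads in foretinib, 730.1, 1125 and 1508 in cabozantinib and 421, 1232 and 695 in DMSO. The foretinib libraries lay below every other library, and cabozantinib overlapped DMSO. Its mean was 24.2-fold lower than in DMSO and 34.7-fold lower than in cabozantinib. The log2 difference was -7.27 (SE 2.05, -11.69 to -2.85, limma adjusted p = 0.358) for foretinib against DMSO and -7.87 (-12.29 to -3.44, adjusted p = 0.377) for foretinib against cabozantinib, and cabozantinib differed from DMSO by 0.59 (-3.83 to 5.01). Of the 4530 tested genes within 2-fold of its DMSO mean, 8.08% were lower in foretinib without overlap; their median log2 difference was -0.54.

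CDKN2C (p18) had 2213, 2683 and 3771 normalised reads in foretinib, 1891, 1373 and 1645 in cabozantinib and 1653, 1459 and 1750.3 in DMSO. All 3 foretinib libraries were above all 6 others, and cabozantinib and DMSO covered the same range. The log2 difference was 0.80 (SE 0.36, 0.02 to 1.58, limma adjusted p = 0.531) for foretinib against DMSO and 0.80 (0.02 to 1.57, adjusted p = 0.499) for foretinib against cabozantinib, and 0.0059 (-0.77 to 0.78) for cabozantinib against DMSO. The summed level of CDKN2B and CDKN2C was 2921 ± 789 in foretinib, 2757 ± 348 in cabozantinib and 2403 ± 310.4 in DMSO. This sum is not that of the whole INK4 family, and CDKN2A alone had a higher mean in every group. The INK4 family's other members, CDKN2A (p16 and ARF, which share 1 row of the table) and CDKN2D (p19), had group means of 3491 ± 1129 and 1291 ± 1097 in foretinib, 4469 ± 439.9 and 983 ± 91.2 in cabozantinib and 4075 ± 2278 and 1276 ± 846 in DMSO.

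**Figure D2:**
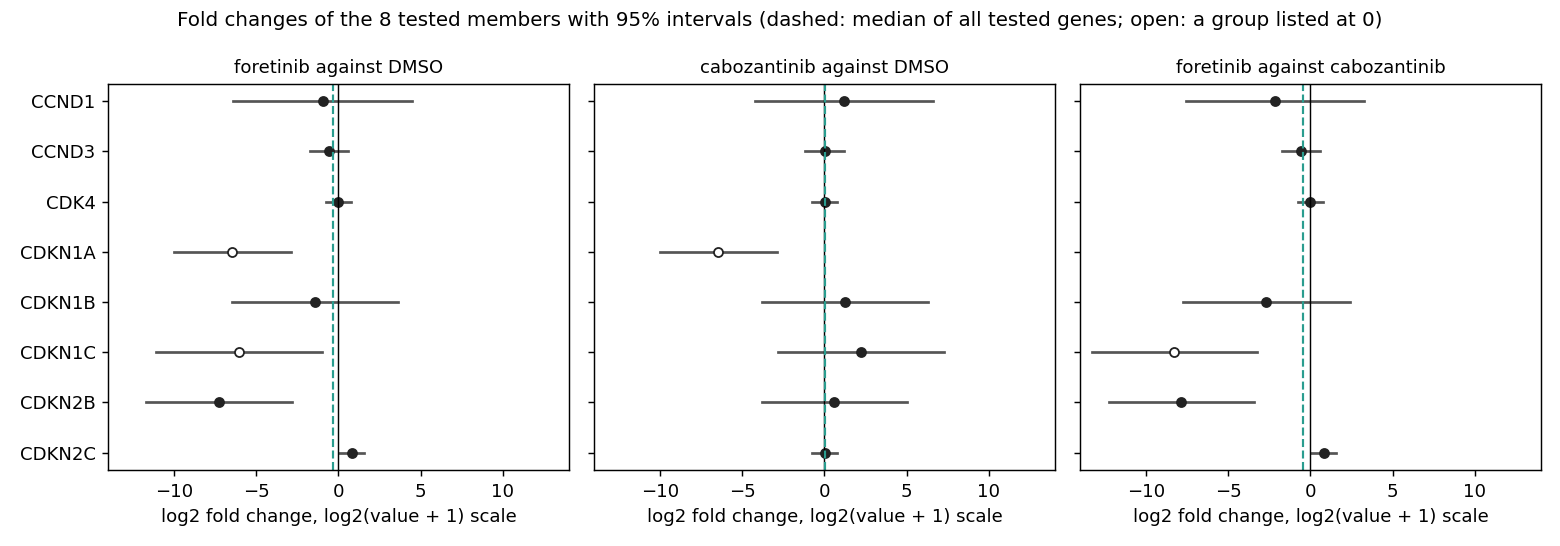
Log2 fold change (horizontal axis, log2(value + 1) scale) of the 8 tested genes for 3 comparisons, foretinib and cabozantinib each against DMSO and foretinib against cabozantinib, with 95% limma intervals; the dashed line is the median of all 12642 tested genes, and open points have a group listed at 0, where the size depends on the pseudocount. CDKN2B lies at -7.27 and -7.87 in the foretinib comparisons and at 0.59 for cabozantinib against DMSO, and CDKN1A has no point where both groups were at 0.

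Counted over the 8 tested members, 0 passed the adjusted p in any comparison, as did 0% of all tested genes. For foretinib against DMSO, 1 member was higher and 3 were lower without overlap between the groups, against 3.99% and 7.69% of all tested genes. The same 4 members had an unadjusted p below 0.05, against 2.17% of genes higher and 6.9% lower. For cabozantinib against DMSO, 0 members were higher and 1, CDKN1A, was lower without overlap, against 5.18% and 4.71% of all tested genes, and CDKN1A was the 1 member with an unadjusted p below 0.05, against 0.878% of genes higher and 0.435% lower. For foretinib against cabozantinib, 1 member was higher and 2 were lower without overlap, against 4.49% and 9.7% of all tested genes, and the same 3 members had an unadjusted p below 0.05, against 1.83% and 8.08%. CDKN1A and CDKN1C entered these counts through groups listed at 0. CDKN1A passed the filter only through DMSO, and CDKN1C needed its cabozantinib libraries to pass, since 2 others reached 10, so the comparison of CDKN1C with cabozantinib had to differ.

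Over the members, the median log2 difference from DMSO was -1.19 with foretinib and 0.30 with cabozantinib, and that of foretinib from cabozantinib was -1.36, beside medians over all tested genes of -0.34, 0.04 and -0.44. On the log2(value + 100) scale the member medians were -0.25, 0.27 and -0.37 and those of all genes -0.15, 0.02 and -0.18. Tested genes within 2-fold of a member's DMSO mean had medians of their own for foretinib against DMSO, on the log2(value + 1) scale. These were -2.10 at the level of CCND1, -1.92 at CDKN1A, -2.11 at CDKN1B and -2.08 at CDKN1C. They were -0.54 at CDKN2B, -0.17 at CDKN2C, -0.12 at CCND3 and -0.096 at CDK4. The member median of -1.19 lies between CDKN1B (-1.42) and CCND1 (-0.96), and both signs rest on a single foretinib library at 0. Without foretinib replicate 2 CDKN1B was 1.43, and without foretinib replicate 1 CCND1 was 1.98. The member medians include CDKN1A, which passed the filter only through DMSO and enters the foretinib-cabozantinib median with both groups at 0. They also include CDKN1C, which needed its cabozantinib libraries to pass. The comparisons share libraries and are therefore not independent of each other.

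DESeq2 on recovered whole reads, an alternative test, called CDKN2B and CDKN1C lower with foretinib. The adjusted p of CDKN2B was 0.0186 against DMSO and 0.00617 against cabozantinib, and that of CDKN1C 0.000631 and 7.21e-05, where the second rests on a gene that needed its cabozantinib libraries to pass the filter. DESeq2 called 4.41% of its tested genes lower with foretinib in each of these comparisons, and 0.969% higher against DMSO and 0.712% higher against cabozantinib. edgeR's quasi-likelihood test on the same reads called 0 genes; its adjusted p for CDKN2B was 0.605 and 0.628. For cabozantinib against DMSO, DESeq2 called 0 of the members, and 0.298% of its tested genes higher and 0.0911% lower. For CDKN2B and CDKN1C limma, edgeR and DESeq2 gave the same direction in both foretinib comparisons. With every foretinib library below all others, that direction was given by the values and is no separate support.

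**Figure D3:**
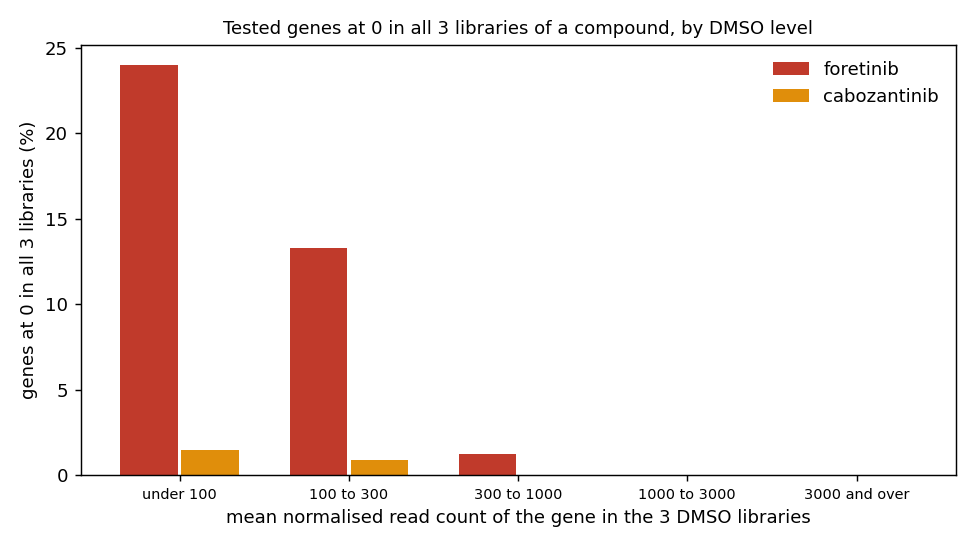
Share of tested genes listed at 0 in all 3 foretinib or all 3 cabozantinib libraries (vertical axis, percent) by mean DMSO level (horizontal axis, normalised read count). Under 100 the share was 23.97% in foretinib and 1.47% in cabozantinib, at 100 to 300 it was 13.3% and 0.874%, at 300 to 1000 it was 1.24% and 0.0269%, and above 1000 it was 0 in both.

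CDKN1A and CDKN1C sit in the level ranges of the plot of zeros by level where genes were most often at 0 in all foretinib libraries. CDKN2B, with 782 ± 412 in DMSO and 2 of 3 foretinib libraries at 0, falls among genes of 300 to 1000, where 14.7% of single foretinib values and 0.951% of single cabozantinib values were 0; their part in the CDKN2B values was not tested. CDKN2C and CDK4 lie at 1000 to 3000, where 0.95% of single foretinib values and 0% of single cabozantinib values were 0. No gene of that range was at 0 in all 3 libraries of either compound.

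CDKN2B lies in a cluster on chromosome 9 with MTAP, CDKN2A, the antisense RNA CDKN2B-AS1 and DMRTA1, and these neighbours were looked at after the CDKN2B values had been seen. CDKN2B-AS1 was listed at 0 in all 3 foretinib libraries and had 415, 227 and 527 normalised reads in cabozantinib and 408, 31.1 and 316 in DMSO. DMRTA1, a transcription factor of the doublesex family, was likewise listed at 0 in all 3 foretinib libraries and had 183, 364 and 145 in cabozantinib and 219, 595 and 67.5 in DMSO. In both the foretinib libraries lay below all others, with limma adjusted p-values of 0.402 for CDKN2B-AS1 and 0.364 for DMRTA1 against DMSO, and 0.377 for each against cabozantinib. Among tested genes with a DMSO mean of 100 to 300, as both have, 13.3% were at 0 in all 3 foretinib libraries and 0.874% in all 3 cabozantinib libraries, and the part of this in the values of the pair was not tested. The span of CDKN2B-AS1 overlaps that of CDKN2B on the opposite strand. The strand setting of the counting is not given in the sources used here. Whether reads of 1 gene were counted for the other was not tested.

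CDKN2A and MTAP, on the other side of CDKN2B from DMRTA1, were found in every library. CDKN2A had 4605, 2347 and 3521 normalised reads in foretinib, 4670.4, 3964 and 4772 in cabozantinib and 1498, 5819 and 4907 in DMSO, and its groups overlapped. MTAP, a polyamine salvage enzyme, had 4286, 3287 and 3973 in foretinib, 2885, 3750.05 and 3358 in cabozantinib and 2799.8, 3196 and 2647 in DMSO, so that the foretinib libraries lay above all DMSO libraries (0.41, -0.16 to 0.99, limma adjusted p = 0.572).

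**Figure D4:**
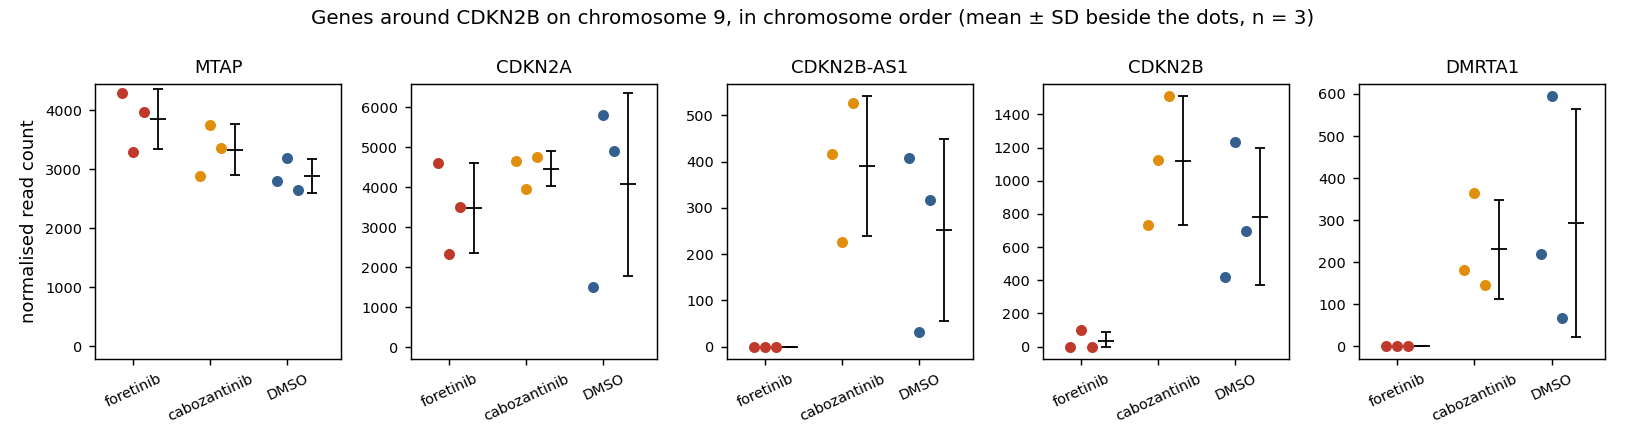
Normalised read count (vertical axis) of CDKN2B and its chromosome 9 neighbours in every library, in gene order without distances, with foretinib, cabozantinib and DMSO marked by colour. CDKN2B-AS1, CDKN2B and DMRTA1 are at 0 in all foretinib libraries except CDKN2B at 97.0 in replicate 2, while CDKN2A and MTAP stay above 1000 in every library.

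Genes that act next to the set were taken from 6 lists with 58 genes, of which 56 were tested. In each comparison 0 passed the adjusted p. For foretinib against DMSO, 0 were higher and 5 lower without overlap: E2F5, EGR1, FOXO3, RBX1 and SMAD4, which is 8.93% of the 56 beside 7.69% lower and 3.99% higher among all tested genes. For cabozantinib against DMSO, 0 were higher and 6 lower: CDK7, CUL4A, EGR1, RBL1, SMAD2 and SMAD4, or 10.7% beside 4.71% lower and 5.18% higher among all tested genes. For foretinib against cabozantinib, 0 were higher and 4 lower: E2F5, EGR1, FOSL1 and RBX1. This is 7.14% beside 9.7% lower and 4.49% higher among all tested genes. FOSL1 was at 0 in every foretinib library and its lowest DMSO value was 0, so it needed its cabozantinib libraries to pass the filter. E2F5 needed its DMSO libraries to pass, since foretinib reached at most 0.822 and the lowest cabozantinib value was 9.93. Both genes therefore entered these counts partly through the filter.

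Among the 13 RB and E2F factors, the median log2 difference was -1.09 for foretinib against DMSO and -0.21 for cabozantinib against DMSO. E2F5, an E2F that binds the pocket proteins and represses in quiescent cells, averaged 0.274 ± 0.475 normalised reads in foretinib, 96.3 ± 80.6 in cabozantinib and 369 ± 255 in DMSO. Its foretinib libraries lay below all others (-7.88 against DMSO, -12.88 to -2.88, limma adjusted p = 0.365). With foretinib this near 0, the fitted size depends on the pseudocount. In the DMSO range of E2F5, 300 to 1000, 14.7% of single foretinib values were 0, and their part in its values was not tested. RBL2, a pocket protein, averaged 1583 ± 586 in foretinib, 779 ± 295 in cabozantinib and 1011 ± 169 in DMSO (1.03 for foretinib against cabozantinib, -0.17 to 2.23, adjusted p = 0.524). None of the 7 genes of cyclin E, cyclin A and CDK2 (median -0.50 for foretinib against DMSO) and none of the 6 CDK-activating kinase and chaperone genes (median 0.018) had an unadjusted p below 0.05 in that comparison. CCNE1, which encodes cyclin E, averaged 242 ± 419 in foretinib, 326 ± 296 in cabozantinib and 259 ± 279 in DMSO, and CDK2, its kinase, averaged 1263 ± 1277, 1145 ± 101 and 1146 ± 379 in these groups. CCNH, the cyclin of the CDK-activating kinase, averaged 1329.8 ± 356 in foretinib, 751 ± 290.1 in cabozantinib and 826 ± 249.99 in DMSO.

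Of the 12 tested genes of cyclin D and p27 turnover, RBX1, the RING subunit of cullin ubiquitin ligases, averaged 1251 ± 662 normalised reads in foretinib, 2533 ± 338 in cabozantinib and 2313 ± 428 in DMSO. It lay below both other groups without overlap (-1.05 against DMSO, -2.06 to -0.05, limma adjusted p = 0.531; -1.19 against cabozantinib, adjusted p = 0.443). Among 16 tested transcription factors known to act on members, EGR1, an immediate early factor, averaged 713 ± 442 in foretinib, 2618 ± 292 in cabozantinib and 4633 ± 273 in DMSO, so that the 3 groups did not overlap. FOSL1, an AP-1 subunit, was listed at 0 in all foretinib libraries and averaged 239 ± 48.3 in cabozantinib and 191 ± 174 in DMSO. SMAD2, a carrier of TGF-beta signals, averaged 1115 ± 333 in cabozantinib, below every DMSO library (mean 2261 ± 730.4), and 1823 ± 766 in foretinib.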

How the data were processed

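RNA of the 9 libraries was column-purified with DNase digestion and made into NuGEN Encore Complete libraries, per the labels' protocols. The authors deposited 1 signal value per gene and library, the read count divided by 1 size factor. Build hs37d5 and the tools HTSeq, DESeq2, Cufflinks 2.2.1 and TopHat2 2.0.13 appear in the submitters' processing notes, without roles, annotation or strand setting. All values were whole multiples of 1 step (100% within 1e-06 of a read); for 3 columns an automatic check could not tell this from rounding, so count tests served as alternatives.

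From the deposited signal, log2(value + 1) was fitted with limma-trend (limma 3.58.1, R 4.3.3) over genes with 10 or more in at least 3 libraries, all 9 libraries in 1 model, Benjamini-Hochberg adjusted over all tested genes. The procedure was tested on simulated data with the same noise setting in every group, whereas here the foretinib libraries varied more than the others. Every member was named, and from each list up to 2 genes per comparison with the smallest p, of which the text describes some; genes without overlap between groups, and CDKN2B's neighbours, were named after their values were seen. Members and lists were chosen with earlier results of these data known, so member values are descriptions. Transcript lengths came from GENCODE 29. Other pseudocounts, filters, scalings, edgeR 4.0.16, DESeq2 1.42.0 and left-out libraries were alternatives.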

Additional observations from a re-analysis of the deposited data

How the results depend on the processing

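With limma-trend 0 genes passed in each comparison, also with each library left out (0 to 0), with the replicate block and with edgeR. Quantile normalisation gave 1, EGR1, for foretinib against DMSO, and DESeq2 gave 650 for foretinib against DMSO (117 higher and 533 lower), 47 for cabozantinib against DMSO, and 618 in the foretinib-cabozantinib comparison. Of 426 member results under alternatives, 383 kept direction and side of the threshold and 39 changed sign. Another 4 passed the threshold with DESeq2 (CDKN1C and CDKN2B in both foretinib comparisons). The cause of these changes was not tested. The 383 include fits where only the adjusted p could change and the difference could not. These used another filter, only the 6 libraries compared, or left out a library of the third group. The 383 also include CDKN1A and CDKN1C in comparisons with a group at 0 in every library, where the sign could hardly turn. As 0 genes passed in most fits, keeping the side of the threshold was also near given. The CDKN2B difference for foretinib against DMSO lay between -9.48 and -6.17 with libraries left out and was -2.71 on the log2(value + 100) scale. Sign changes for foretinib against DMSO were CCND1 at 0.29 (log2(value + 100)), 0.48 (quantile), 0.74 (edgeR) and 0.78 (DESeq2), CDKN1B at 0.17, 0.79, 0.55 and 0.59 under the same 4, and CDK4 at 0.020 (DESeq2). For cabozantinib against DMSO, CCND3 was -0.053 (edgeR) and -0.063 (DESeq2), and for foretinib against cabozantinib CCND1 was 0.14 (edgeR) and 0.17 (DESeq2). With libraries left out, for foretinib against DMSO, CCND1 ranged from -2.75 to 1.98, CCND3 from -1.05 to 0.10, CDK4 from -0.17 to 0.26 and CDKN1B from -2.87 to 1.43. For cabozantinib against DMSO, CCND1 ranged from -0.10 to 1.91, CCND3 from -0.29 to 0.30, CDK4 from -0.22 to 0.16, CDKN1B from 0.60 (without DMSO replicate 2) to 1.71, CDKN1C from 0.95 to 3.53, CDKN2B from 0.21 (without DMSO replicate 2) to 0.99 (without DMSO replicate 4) and CDKN2C from -0.10 to 0.13. For foretinib against cabozantinib, CCND1 ranged from -3.95 to 0.79, CCND3 from -1.06 to 0.093, CDK4 from -0.15 to 0.26 and CDKN1B from -4.13 to 0.18.

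Libraries with the same replicate number deviated from their group means with correlations of -0.00223 to 0.0288. Libraries with different numbers gave -0.0244 to 0.0308. The deviations rest on only 3 libraries per group, so they cannot decide whether a number marks paired cultures. In the replicate block fit, where foretinib replicate 1 and cabozantinib replicate 3 carry a number of their own and add nothing, CCND1 was 2.35 and CDK4 0.19 for foretinib against DMSO, CDK4 -0.20, CDKN1B -0.69 and CDKN2C -0.18 for cabozantinib against DMSO, and CCND1 2.04 and CDK4 0.39 for foretinib against cabozantinib. CCND1, CDKN1A, CDKN1B and CDKN1C did not reach a mean of 500 and have no value under that filter. Differences of members with libraries at 0 have wide intervals, and whether greater depth would change them was not tested.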

Other observations

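Some genes outside the set had patterns close to those of its members over the 9 libraries, measured as the root mean square difference of centred log2(value + 1) among tested genes with a mean of at least 500. The nearest to CDKN2B were KIAA1841 (0.72), ANKRD26 (0.92) and MGAT4A (0.93). The nearest to CDKN2C were RANBP10, PPP1R9B and EBF1 (0.16, 0.16 and 0.17), and the nearest to CDK4 were ABHD12, UBE4A and TNNT1 (0.13, 0.14 and 0.17). The nearest to CCND1 were CENPA (0.45), COL4A3BP (0.71) and ITPRIPL2 (0.74).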
